A study of Mus musculus with 11 samples.

Results

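Surface pit mucus cells line the pits and the open surface of the stomach, and 10 genes that mark them in mouse (Muc5ac, Tff1, Gkn1, Gkn2, Psca, Vsig1, Capn8, Capn9, Cldn18 and Sult1c2) were described here out of 21887 protein-coding genes. They were chosen by name as genes known to mark pit cells, with earlier results of these data known. For each gene, every peak in the gene body and 50 kb on each side (GRCm38, mm10) was taken from all 11 deposited peak lists, and these windows held 92 merged sites.

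The libraries were made by ChIP-seq, in which fragments of chromatin bound by an antibody are sequenced and regions with more reads than their surroundings are listed as peaks. Glands of the mouse stomach were used, with 8 libraries for acetylated lysine 27 of histone H3 (H3K27ac), which is found at enhancers and promoters in use, and 3 for trimethylated lysine 4 (H3K4me3), a mark of promoters. The H3K27ac groups, of 2 libraries each, were Atp4bCre, Rosa26NICD, Arid1aflox/flox (2-allele), Atp4bCre, Rosa26NICD, Arid1aflox/+ (1-allele), Atp4bCre, Rosa26NICD without a floxed Arid1a allele (NICD) and wild type. H3K4me3 was profiled in 1 library each of Arid1a-floxed glands, NICD glands and wild type glands. NICD stands for the Notch intracellular domain, and Atp4bCre is a Cre recombinase under the promoter of a parietal cell gene, so the 3 mutant groups shared Cre and NICD and differed in Arid1a, which encodes a subunit of the SWI/SNF chromatin remodelling complex. Whether the alleles were recombined in pit cells, and the ages of the mice, are not given in the sources used here. The title of the Arid1a-floxed H3K4me3 library gives 1 allele and its genotype gives 2, so its allele number was left undecided. Fixed pellets were pooled before the chromatin was sheared, so replicates may not be separate animals, and tests measure the spread between these libraries only.

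Pit cells secrete the mucus gel that shields the stomach wall from acid, and they are renewed quickly from progenitors in the gland's isthmus. Their products include the gel-forming mucin itself, small trefoil and gastrokine proteins secreted with it, and membrane and cytoplasmic proteins of the cell. Acetylation of H3K27 at the start of such genes is commonly read as a sign that the gene is in use, but in whole glands fewer pit cells and less acetylation per pit cell cannot be told apart.

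The lists differed in length before any gene was considered. They held 15362 and 14373 peaks in the 2-allele libraries, 5165 and 7602 in the 1-allele libraries, 41405 and 25442 in the NICD libraries and 20590 and 18360 in wild type. Where headers gave it, H3K27ac depth ran from 7.96 to 18.26 M tags after duplicate removal, and NICD replicate 2, the shallowest, also had the highest redundant rate, 0.52. The H3K4me3 lists held 5175 peaks (Arid1a-floxed), 39420 (NICD) and 17558 (wild type). Both 2-allele lists gave positions alone, with no depth or score. A longer list can call more of any gene set, so the counts of the pit genes are set beside shares over all genes or sites. A gene without a peak is one at which the authors' caller listed none, which does not show that the mark was absent.

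Upstream sequences of 4 genes are shown first, because they hold the boundaries from which promoter peaks were measured and because these genes turned out to span the range from a gene called in every H3K27ac library to one called in 2. The sequences are the 250 bases before the start, 5′ to 3′ on the gene's strand, from the RefSeq table of GRCm38.p6, which held 7 of the 10 genes and 8 of their starts. Gkn1 lies at chr6:87350916-87351165 on the minus strand, Gkn2 at chr6:87373115-87373364 on the plus strand, the starts of Cldn18 at chr9:99717268-99717517 (upstream) and chr9:99710064-99710313 (downstream) on the minus strand, and Sult1c2 at chr17:53845959-53846208 on the minus strand. Capitals mark matches to TGATAA or AGATAA, the letters bound by GATA factors, on either strand (TTATCA or TTATCT on the opposite one), and to TATAAA, the TATA box.
Gkn1: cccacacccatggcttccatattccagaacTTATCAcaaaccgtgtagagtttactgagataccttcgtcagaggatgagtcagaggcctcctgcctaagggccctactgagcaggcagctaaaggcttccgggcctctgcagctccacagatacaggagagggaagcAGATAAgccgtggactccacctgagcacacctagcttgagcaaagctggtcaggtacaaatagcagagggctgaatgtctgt
Gkn2: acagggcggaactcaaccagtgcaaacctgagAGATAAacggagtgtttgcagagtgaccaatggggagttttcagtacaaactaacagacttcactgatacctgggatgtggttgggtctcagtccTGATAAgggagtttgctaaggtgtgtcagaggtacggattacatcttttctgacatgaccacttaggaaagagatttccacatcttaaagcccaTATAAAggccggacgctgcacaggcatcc
Cldn18 upstream start: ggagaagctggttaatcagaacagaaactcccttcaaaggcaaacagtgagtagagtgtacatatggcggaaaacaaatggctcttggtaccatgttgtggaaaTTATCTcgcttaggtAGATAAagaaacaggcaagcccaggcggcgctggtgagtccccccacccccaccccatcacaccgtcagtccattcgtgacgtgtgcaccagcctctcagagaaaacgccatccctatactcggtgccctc
Cldn18 downstream start: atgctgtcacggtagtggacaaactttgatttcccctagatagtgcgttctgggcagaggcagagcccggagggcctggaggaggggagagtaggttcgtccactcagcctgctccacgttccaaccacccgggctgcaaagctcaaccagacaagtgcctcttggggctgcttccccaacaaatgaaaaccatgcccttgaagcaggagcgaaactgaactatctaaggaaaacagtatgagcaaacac
Sult1c2: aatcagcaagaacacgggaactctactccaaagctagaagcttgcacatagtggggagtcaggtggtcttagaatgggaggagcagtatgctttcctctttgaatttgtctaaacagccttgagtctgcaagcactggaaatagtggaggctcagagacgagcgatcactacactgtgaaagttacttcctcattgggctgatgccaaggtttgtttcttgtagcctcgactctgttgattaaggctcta

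The GATA letters were present before 3 of the 8 starts, those of Gkn1, Gkn2 and the upstream start of Cldn18, with 2 matches in each, against 14.6% of 21263 mouse promoters cut the same way. Gkn2 alone among the 8 had TATAAA, whose first base lay 29 bases before the start (-29), against 11.6% of all promoters. Forkhead letters (TGTTTAC or TGTTTGC, both strands) lay before 3 starts, against 6.43% of promoters, and CACCC (Klf factors) before 6, against 54.2%. TTGCNNAA (C/EBP factors) lay before 1 start, that of Gkn1, against 9.09% of promoters, while CACGTG (E-box) and TTTATNG (Cdx factors) lay before none, against 6.63% and 8.79%. The letters TGGGAA, the core recognised by the Notch partner Rbpj, were before none of the 8, against 20.9% of promoters. No match overlapped another. These are matches of letters in windows of fixed length, searched on both strands, and are not binding sites. CG dinucleotides numbered from 0 in Capn8 to 9 at the upstream start of Cldn18, and all 8 counts lay below the median of all promoters, 10.0 (quartiles 3.0 and 19.0). The pit genes thus had CG counts in the lower part of the genome's range, with 4 in Sult1c2, the gene that was called most often.

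Promoter peaks, defined as peaks within 1 kb of a gene start, were found for 9 of the 10 genes in at least 1 H3K27ac library and for all 10 in the NICD H3K4me3 library. In H3K27ac, 5 and 2 genes were called in the 2-allele libraries, 3 and 1 in the 1-allele libraries, 9 and 6 in the NICD libraries and 6 and 8 in wild type. Over all 21887 genes the same call was made for 44.4% and 42.7% in the 2-allele libraries, 17.2% and 27.1% in the 1-allele libraries, 54.3% and 48.9% in the NICD libraries and 44.8% and 42.6% in wild type. In the full lists the share of pit genes was above that of genes in general in both NICD and both wild type libraries. The gap was smallest in NICD replicate 2 and wild type replicate 1, with 6 of 10 genes each. Cut to 18360 peaks, NICD replicate 1 called 4 of the 10, against 46.8% of all genes, so the excess did not hold there. Within the 2-allele and the 1-allele groups, pit genes lay on either side of the genome's share. As group means, 3.5 ± 2.1 of the genes were called in 2-allele, 2.0 ± 1.4 in 1-allele, 7.5 ± 2.1 in NICD glands and 7.0 ± 1.4 in wild type glands (SD, n = 2 each). With 2 libraries against 2, an exact permutation test cannot go below p = 0.333, so pairs of groups are compared by their values.

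**Figure D1:**
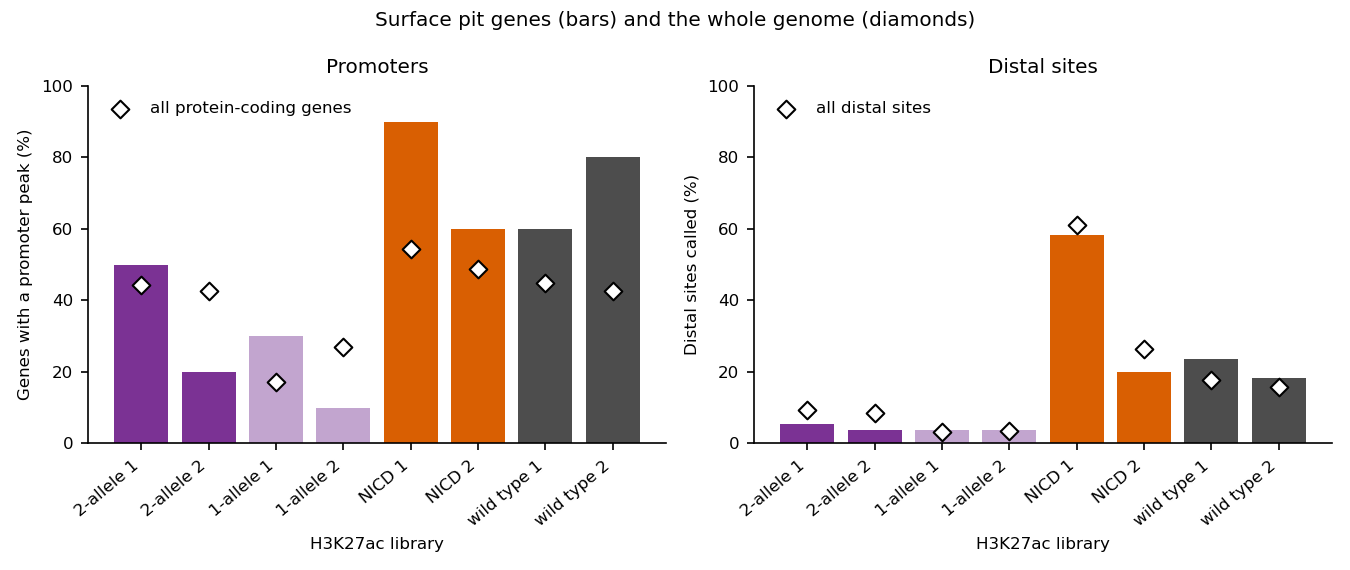
Left, percent of the 10 surface pit genes with an H3K27ac promoter peak in each library (bars) and of all protein-coding genes (diamonds). Right, percent of the 55 distal sites of the gene windows called in each library (bars) and of all distal sites of the genome (diamonds). The bars of NICD and wild type stand above the diamonds at promoters, from 60.0% to 90.0%, while at distal sites both NICD bars, 58.2% and 20.0%, stand below them.

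In H3K4me3, 1 gene was called in the Arid1a-floxed library, 10 in the NICD library and 3 in wild type, against 20.7%, 65.3% and 49.9% of all genes. The starts of Muc5ac and Tff1 were themselves placed at the gene end with H3K4me3, so their H3K4me3 calls follow from that choice. Called with H3K4me3 in the NICD library and not in wild type were 7 of the genes, against 15.4% of all genes, and called in NICD and not in the Arid1a-floxed library were 9, against 44.5%. With 1 library a group these differences have no replicate check. In wild type glands, Tff1, Gkn2 and Psca carried an H3K27ac promoter peak in both libraries without an H3K4me3 peak in the wild type H3K4me3 library, the deepest at 20.81 M tags. Over all genes that combination occurred in 1.26%.

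**Figure D2:**
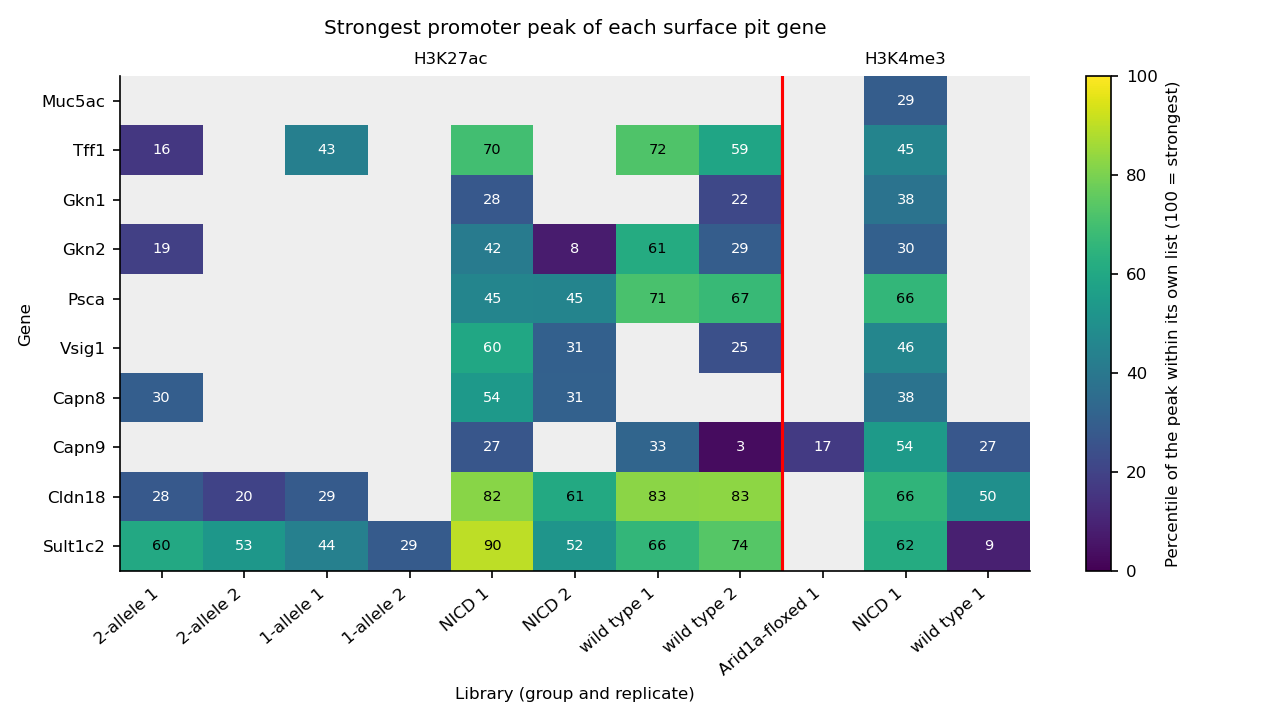
Strongest promoter peak of each gene (rows) in each library (columns: H3K27ac left of the red line, H3K4me3 right of it), as its percentile by strength inside its own list, where 100 is the strongest; grey means no promoter peak. Sult1c2 is filled in all 8 H3K27ac columns and Muc5ac in none, and the NICD H3K4me3 column is filled for every gene.

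The secreted mucus proteins come first. Muc5ac (Entrez 17833, chr7:141788958-141819227) encodes the gel-forming mucin that makes up most of the surface mucus and is the standard marker of pit cells. It had no H3K27ac promoter peak in any of the 8 libraries. Inside its window the H3K27ac lists held 1 peak in NICD replicate 1, centred at -23.06 kb from the start, at the 4.32 percentile of its list. They held 1 in wild type replicate 1, centred at 1.26 kb, at the 50.0 percentile. Its merged site began 1176 bp inside the gene, just past the limit of 1 kb. NICD H3K4me3 marked the start with a peak at the 29.3 percentile and placed a second peak at the site called in wild type. The best-known pit gene was thus the least often marked of the 10.

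Tff1 (Entrez 21784, chr17:31161395-31165060) encodes a trefoil peptide secreted with the mucin. Its promoter was called in 2-allele replicate 1 (16.1 percentile), in 1-allele replicate 1 (43.1), in NICD replicate 1 (69.7) and in both wild type libraries (72.5 and 58.9), and in no other H3K27ac library. The peak of 2-allele replicate 1 thus had the lowest percentile, but the lists differ in length. By rank from the strongest peak (12897) it stood next to that of NICD replicate 1 (12532). NICD replicate 2 held a weak peak of the same merged site, at the 0.707 percentile, that lay beyond 1 kb. The authors' fold enrichment over the local background was 3.84 in 1-allele replicate 1, 3.59 in NICD replicate 1 and 4.44 and 3.49 in wild type.

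Upstream of Tff1 lay distal H3K27ac peaks of high rank. A site centred at -19.06 kb from the start (chr17:31183854-31184378) was called in both NICD libraries (82.2 and 50.8 percentile) and both wild type libraries (49.0 and 60.2), and in no 2-allele or 1-allele library. Its neighbour at -18.48 kb was called in both NICD libraries (82.0 and 77.7) and in neither wild type library, although wild type peaks lay in the site beside it. A weak site at -8.69 kb showed the opposite, with calls at the 1.61 and 6.15 percentile in wild type and none in NICD. No protein-coding gene start lay within 1 kb of these 3 sites, and which gene they act on was not tested.

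Gkn1 (Entrez 66283, chr6:87345653-87350915) and Gkn2 (Entrez 66284, chr6:87373365-87379494) encode gastrokines, small proteins secreted by the gastric surface, and lie next to each other on chromosome 6, so their windows overlap and share sites. Gkn1 was called at its promoter in NICD replicate 1 (27.6 percentile) and wild type replicate 2 (21.7) only. Gkn2 was called in 2-allele replicate 1 (19.0), in both NICD libraries (41.6 and 7.63) and in both wild type libraries (61.4 and 29.4). Gkn2 was thus called in 5 libraries and its neighbour in 2 of those. The 1-allele lists held no promoter peak for either gene, while the promoter of Antxr1, in the windows of both, was called in 1-allele replicate 2 at the 40.3 percentile. A weak distal site at chr6:87357198-87357695, centred -6.53 kb from Gkn1 and -15.92 kb from Gkn2, was called in both NICD libraries (20.3 and 2.81) and in neither wild type library.

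Among proteins of the cell surface, Psca (Entrez 72373, chr15:74714839-74717065) encodes a small membrane-anchored protein of the Ly6 family. Its promoter was called in both NICD libraries (45.4 and 45.0 percentile) and in both wild type libraries (71.2 and 67.2), and in no 2-allele or 1-allele library. Peaks at either gene end were accepted for Psca, since its strand was not given. The NICD peaks lay at the end chr15:74714839, while the wild type peaks at 71.2 and 67.2 lay nearer the other end. At the end with the NICD peaks, wild type had peaks at 53.9 and 38.1, so the groups overlapped there. Neighbours in the same window were called in the 2-allele libraries, where the promoter of Jrk had peaks at the 43.2 and 44.9 percentile. The 1-allele libraries held no peak anywhere in the Psca window.

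Vsig1 (Entrez 78789, chrX:140907608-140939472) encodes an immunoglobulin-domain adhesion protein of the gastric epithelium. Promoter peaks were listed in both NICD libraries (59.7 and 30.7 percentile) and in wild type replicate 2 (24.6), and in no 2-allele or 1-allele library. A distal site centred at -15.59 kb from the start had the same set of libraries, with percentiles of 53.7 and 27.3 in the NICD libraries and 20.3 in wild type replicate 2. The wild type group was split for this gene, so NICD and wild type overlapped.

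Cldn18 (Entrez 56492, chr9:99690796-99717267) encodes claudin-18, a tight junction protein with alternative starts that are used differently in stomach and lung. It was called in 7 of the 8 H3K27ac libraries, at the 27.8 and 20.0 percentile in the 2-allele libraries, 28.6 in 1-allele replicate 1, 82.3 and 60.7 in the NICD libraries and 82.8 and 83.1 in wild type. Those in NICD and wild type all lay above those of the Arid1a-floxed groups, but percentiles of lists of unlike length are not on the same scale. By rank from the strongest peak, 1-allele replicate 1 (3686) stood ahead of both NICD libraries (7346 and 9997) and close behind wild type (3539 and 3111). The 2-allele peaks had ranks of 11092 and 11497. The merged site at the upstream start (chr9:99715270-99717258) held peaks in 7 libraries, of which that of 2-allele replicate 1 lay beyond 1 kb. At the downstream start the site chr9:99709613-99709997 held peaks in 2-allele replicate 1 (27.8) and NICD replicate 1 (59.3), and the site chr9:99710101-99710409 held weaker ones in both NICD libraries (4.38 and 13.9). Fold enrichment at the stronger promoter peak was 4.02 in 1-allele replicate 1, 4.35 and 4.03 in the NICD libraries and 4.88 and 4.82 in those of wild type.

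The genes of intracellular proteins were called in 3 to 8 H3K27ac libraries. Sult1c2 (Entrez 69083, chr17:53829637-53845958) encodes a cytosolic sulfotransferase. It alone of the 10 was called in all 8 H3K27ac libraries, as were 14.4% of all genes, at the 60.4 and 52.8 percentile in 2-allele, 43.6 and 28.7 in 1-allele, 90.2 and 52.3 in the NICD libraries and 66.1 and 73.7 in those of wild type. Its fold enrichment was 4.62 and 4.14 in 1-allele, 6.73 and 4.41 in the NICD libraries and 4.64 and 4.71 in those of wild type. The values of NICD spanned those of wild type, so these groups overlapped.

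Capn8 (Entrez 170725, chr1:182564749-182634456) and Capn9 (Entrez 73647, chr8:124576062-124618731) encode stomach calpains, calcium-dependent proteases that form a complex in pit cells. Capn8 was called at its promoter in 2-allele replicate 1 (29.9 percentile) and both NICD libraries (54.1 and 31.2), and in neither wild type library. In 1-allele replicate 1, a peak centred at -1.28 kb, at the 44.8 percentile, lay beyond 1 kb. That peak belonged to the merged promoter site that held the peak of 2-allele replicate 1. Capn8 was the only pit gene called in both NICD libraries and neither wild type library, a pattern of 3.8% of all genes. Capn9 went another way, with calls in NICD replicate 1 (26.9) and both wild type libraries (32.8 and 3.31) and none in the 2-allele or 1-allele libraries. It was also the only one called with H3K4me3 in all 3 libraries, at the 17.1 percentile in Arid1a-floxed, 54.4 in NICD and 27.1 for wild type. The partners of 1 protease complex therefore shared an H3K27ac promoter call in NICD replicate 1 only.

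Capn8 had many distal peaks, 2 and 3 in 2-allele, 2 and 1 in 1-allele, 7 and 6 in the NICD libraries and 5 and 3 in those of wild type. A site centred at -36.92 kb from its start (chr1:182527140-182529037) was called in both 2-allele libraries (57.7 and 76.8 percentile), both NICD libraries (86.0 and 77.6) and both wild type libraries (34.5 and 52.1), and in neither 1-allele library. Another at -25.71 kb was called in 2-allele replicate 2 (16.3), both NICD libraries (76.0 and 70.1) and both wild type libraries (44.9 and 45.4). So the upstream flank was acetylated in wild type although no Capn8 promoter peak was listed there. The promoter of Capn2, with a site centred at -47.89 kb, lay nearer to both sites than the start of Capn8 did. It was called in 7 of the 8 H3K27ac libraries. Which gene the 2 distal sites act on was not tested.

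Inside Capn8, 64.85 kb from the start, a site of the gene body (chr1:182629686-182630026) ran against this order. Both 1-allele libraries had a peak there, at the 85.1 and 54.0 percentile, as did wild type replicate 1 (32.3), and neither NICD nor 2-allele library had one. H3K4me3 lists held it in all 3 libraries, at the 93.8 percentile in Arid1a-floxed with a fold enrichment of 8.51, and at the 22.0 percentile in NICD and 68.1 for wild type. It was the only distal site of the windows called in both 1-allele libraries and neither NICD library, a pattern of 0.0782% of all 40903 distal sites. The gene table used gives no exons, so whether the site is exonic was not analysed here.

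**Figure D3:**
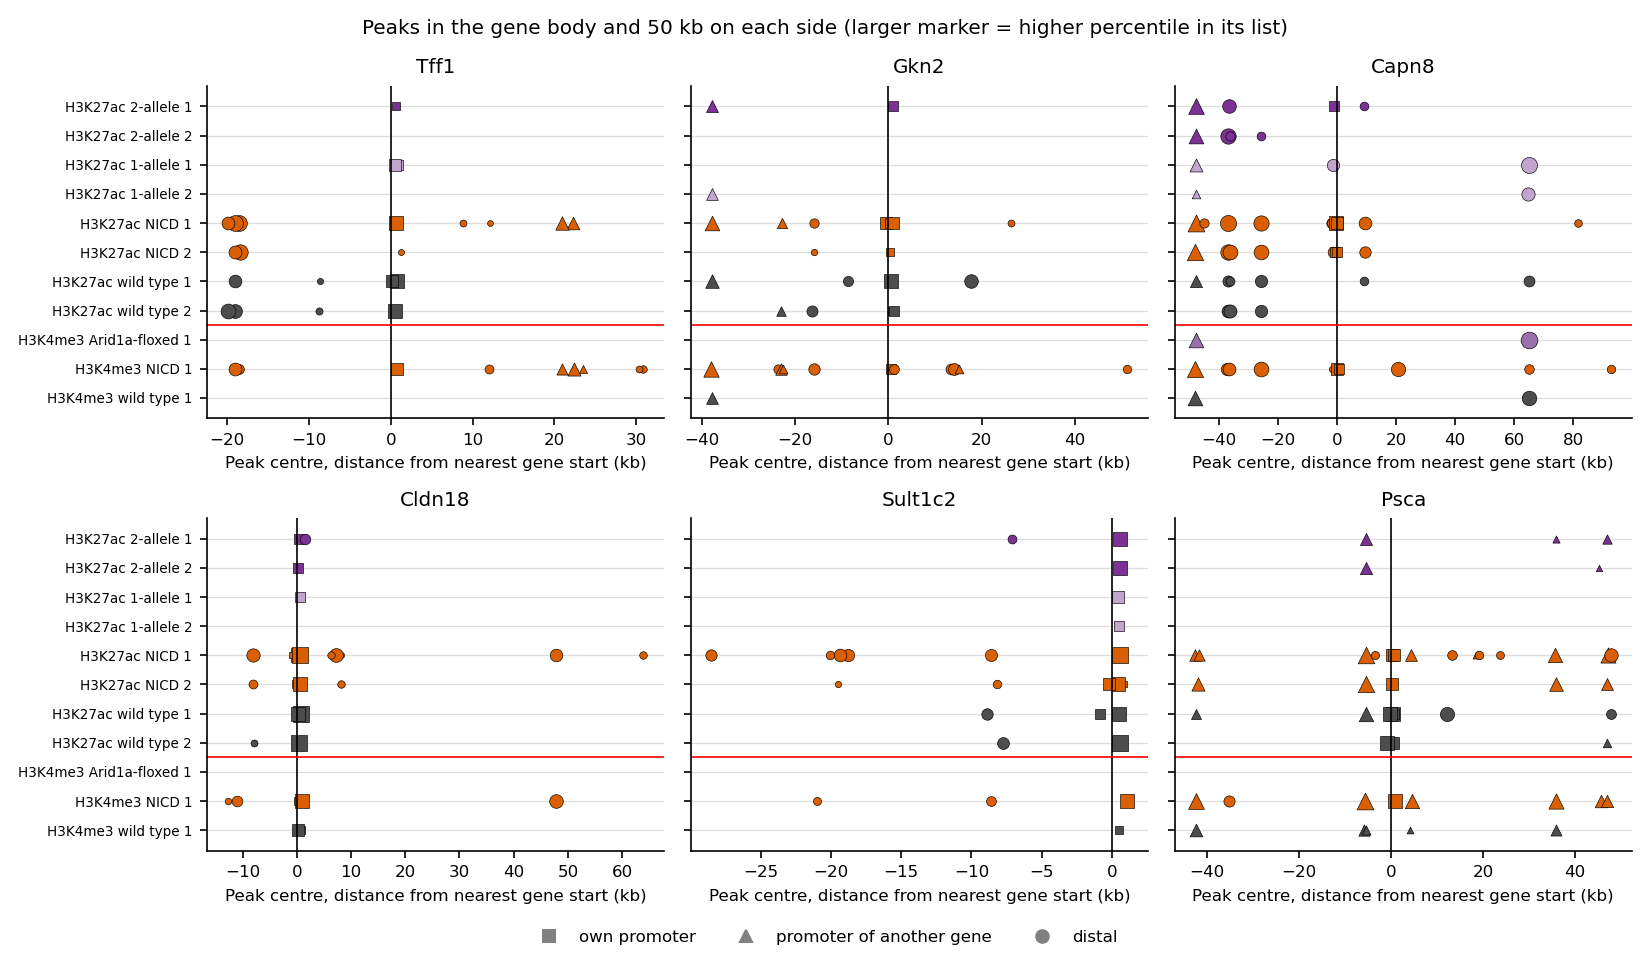
Peaks in the windows of 6 genes by library (rows), placed by the distance of the peak centre from the nearest gene start in kb; squares are the gene's own promoter, triangles promoters of other genes and circles distal peaks, and larger markers have a higher percentile in their list. For Capn8 the circles near -36.92 kb are in every H3K27ac row except the 1-allele rows, and those at 64.85 kb are in both 1-allele rows; the start of Psca was accepted at either gene end.

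Across the windows, 55 of the 92 sites were distal, 21 were the genes' own promoters and 16 were promoters of other genes. Distal sites called numbered 3 and 2 in the 2-allele libraries, 2 and 2 in the 1-allele libraries, 32 and 11 in the NICD libraries and 13 and 10 in wild type. As shares of the 55 these were 5.45% and 3.64% in 2-allele, 3.64% and 3.64% in 1-allele, 58.2% and 20.0% in the NICD libraries and 23.6% and 18.2% in those of wild type. Over all distal sites of the genome the shares were 9.41% and 8.45% in 2-allele, 3.11% and 3.59% in 1-allele, 61.0% and 26.4% in the NICD libraries and 17.7% and 15.7% in those of wild type. The shares of pit gene sites were thus near those of distal sites in general. They were somewhat lower in the 2-allele and NICD libraries, somewhat higher in wild type, and about the same in 1-allele. With 55 sites these gaps amount to a few sites per library and were not tested. NICD replicate 1, the longest list, called 18 of the 55 sites alone, and both NICD libraries shared 11. Means were 2.5 ± 0.71 in 2-allele, 2.0 ± 0.0 in 1-allele, 21.5 ± 15.0 in NICD glands and 11.5 ± 2.1 in wild type glands (SD, n = 2 each).

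NICD against wild type asks how glands with the Notch domain and intact Arid1a differ from normal ones. Called at the promoter in all 4 libraries were Gkn2, Psca, Cldn18 and Sult1c2, where 38.9% of all genes were. Apart from Capn8, no promoter separated the groups in full, and none was called in both wild type libraries but no NICD library, as 0.128% of all genes were. At distal sites, 4 were called in both NICD libraries but no wild type library, against a background of 10.6%, and 1, the site of Tff1 at -8.69 kb, in both wild type libraries but no NICD library, against 0.506%. The 4 lay in the windows of Tff1, Gkn1 (shared with Gkn2), Cldn18 and Sult1c2. Their share of the 55 was below the background's.

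The order of NICD and wild type changed when their lists were cut to equal length. With the NICD and wild type lists cut to their strongest 18360 peaks, 4 and 5 of the genes were called in the NICD libraries, against 6 and 8 in those of wild type, while of all genes the NICD lists called 46.8% and 45.1%, against 43.2% and 42.6% by those of wild type. Gkn2 and Capn9 were then called in both wild type libraries but no NICD library, a pattern of 0.621% of all genes, and no pit gene showed the reverse, which 1.95% of genes did. Distal sites numbered 6 and 5 in the NICD libraries, against 12 and 10 in those of wild type, while of all distal sites the NICD lists called 16.8% and 15.4%, against 14.5% and 15.7% by those of wild type. So at equal length pit promoters were called less often in each NICD library than in either wild type library, although genes in general were called more often. The alternative was chosen after seeing the data.

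**Figure D4:**
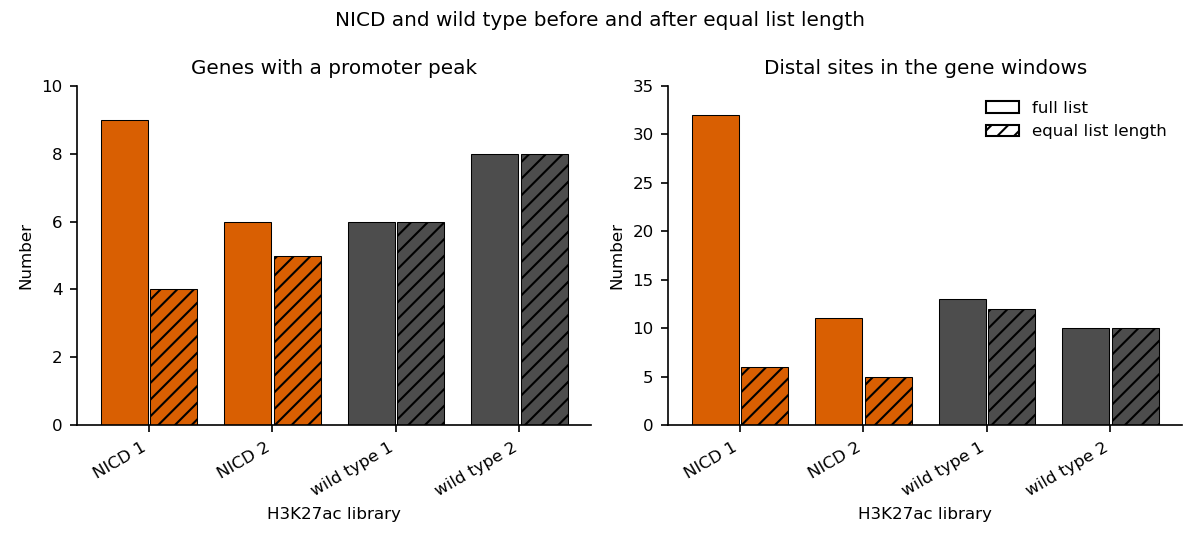
Number of the 10 genes with a promoter peak (left) and of distal sites in their windows (right) in each NICD and wild type H3K27ac library, for the full list (plain bars) and for the strongest 18360 peaks of each (hatched bars). The hatched NICD bars, 4 and 5 genes and 6 and 5 sites, stand below both wild type bars in each panel.

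The rank of pit promoters inside the lists depended on the score. For Psca the strongest peak at either gene end entered the medians. Ranked by −log10 p, the median promoter peak of the pit genes lay at the 54.1 and 38.1 percentile in NICD, where the median gene lay at 84.0 and 75.8, and at 68.7 and 44.1 in wild type, where it lay at 71.1 and 69.6. Ranked by summit pileup, they lay at 66.7 and 60.5 in NICD, against 79.6 and 70.2 for all genes, and at 86.7 and 82.0 in wild type, against 63.3 and 63.5. Ranked by fold enrichment, they lay at 23.5 and 15.2 in NICD, against 83.9 and 76.4, and at 34.3 and 9.28 in wild type, against 72.6 and 70.9. Pit promoters in wild type therefore ranked above the median gene by reads at the summit and below it by the ratio to the surrounding background, while in NICD they ranked below it by all 3 scores. Within 1 kb of the start, the pit genes' peaks covered a median of 710 and 333 bp in NICD, against 889 and 634 bp over all called genes, and 485 and 539 bp in wild type, against 422 and 436 bp. Of 47 H3K27ac promoter peaks at pit genes with a known strand, pooled over libraries with repeat calls of the same genes, 78.7% were centred downstream of the start. Over all genes the share was 64.4% to 75.7% per library. By library, 9 of 14 and 6 of 9 lay downstream in NICD, against 64.4% and 66.1%, and 6 of 7 and 8 of 8 in wild type, against 68.3% and 69.6%. The 2-allele and 1-allele lists held only 4, 2, 2 and 1 such peaks.

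1-allele against NICD and 2-allele against NICD ask how glands with floxed Arid1a alleles differ among those with NICD. Gkn2, Psca, Vsig1 and Capn8 were called in both NICD libraries but no 1-allele library, a pattern of 19.1% of all genes, and Sult1c2 in all 4, as were 14.5%. For Capn8, 1-allele replicate 1 had a peak in a merged promoter site that lay beyond 1 kb of the start. None was called in both 1-allele libraries but no NICD library, as 0.00457% of genes were. Psca and Vsig1 were called in both NICD libraries but no 2-allele library, a pattern of 3.71% of genes, and Cldn18 and Sult1c2 in all 4, as were 40.1%. None was called in both 2-allele libraries but no NICD library, as 0.0228% of genes were. Both comparisons share the NICD libraries. Of the 55 distal sites, 11 were called in both NICD libraries but no 1-allele library, against 19.0% of all distal sites, and 8 in both NICD libraries but no 2-allele library, against 13.6%. Sites called in both 2-allele libraries but no NICD library numbered 0, against 0.0709%.

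Cut to the strongest 5165 peaks, 3 and 0 genes were called in 1-allele, against 1 and 0 in NICD, where of all genes 17.2% and 19.9% were called in 1-allele, against 21.9% and 21.2% in NICD. Cut to 14373, 5 and 2 were called in 2-allele, against 3 and 3 in NICD, where the shares of all genes were 43.2% and 42.7% in 2-allele, against 43.4% and 41.6% in NICD. The lower promoter counts of both Arid1a-floxed groups did not hold with these cuts, although with every list cut to the shortest the mean of 2-allele remained 0.5 below that of NICD (-0.5). At 14373 peaks, 3 and 2 distal sites were called in 2-allele, against 4 and 4 in NICD, and of all distal sites 8.34% and 8.45% in 2-allele, against 10.6% and 9.89% in NICD. At 5165 peaks, 2 and 1 were called in 1-allele, against 0 and 0 in NICD, and of all distal sites 3.11% and 2.2% in 1-allele, against 1.78% and 1.95% in NICD. The direction at pit gene sites was thus that of distal sites in general.

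Between the Arid1a genotypes, 2-allele against 1-allele, no pit promoter separated the groups in either direction, where 12.2% of all genes were called in both 2-allele libraries but no 1-allele library and 0.0366% the reverse. Sult1c2 was called in all 4 libraries, as were 14.5% of genes. The Capn8 site at -36.92 kb was the only distal site called in both 2-allele libraries but no 1-allele library, against 2.8% of distal sites. The reverse held for the site inside Capn8 and for a site at -35.82 kb of Capn9, with 2.34 and 17.7 percentile in 1-allele, against 0.386%. The Capn9 site was also called in NICD replicate 1 (51.0) and both wild type libraries (54.0 and 62.1). At 5165 peaks, 0 and 0 genes were called in 2-allele, against 3 and 0 in 1-allele, the 3 being Tff1, Cldn18 and Sult1c2 in 1-allele replicate 1, while of all genes 22.5% and 22.1% were called in 2-allele, against 17.2% and 19.9% in 1-allele.

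Peaks per window were tested over the 4 H3K27ac groups with an exact permutation test of the 105 ways to pair 8 libraries, whose smallest p is 0.00952, with Benjamini-Hochberg adjustment over the 17608 genes that had a window peak. None of them had an adjusted p under 0.05 (0.0%), and 4975, or 28.3%, had an unadjusted p under 0.05. Since p cannot go below 0.00952, an adjusted p under 0.05 needs many genes at that smallest p. The test therefore cannot tell whether a single gene differed. Cldn18, the 1 pit gene with an unadjusted p under 0.05, had 2 and 1 peaks in the 2-allele libraries, 1 and 0 in 1-allele, 10 and 4 in the NICD libraries and 2 and 3 in those of wild type (exact p = 0.0381, adjusted p = 0.149, and 0.116 to 1.0 over the alternatives). These counts were not scaled for list length. As peaks per 10000 peaks of the list, the exact permutation p of Cldn18 was 0.619, and with every list cut to the shortest it was 0.429. Sult1c2 had 2 and 1, 1 and 1, 6 and 5 and 3 and 2 peaks in the same order of groups (exact p = 0.0571, adjusted p = 0.17). For the other 8 genes the adjusted p of this exact permutation test ran from 0.194 (Capn8) to 1.0 (Muc5ac). At 1 of 10, the share with an unadjusted p under 0.05 was below the background.

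Other genes of the mucus pathway were counted for context, in a list of 22 that holds further pit markers, mucin glycosyltransferases and secretory regulators. Promoter peaks numbered 8 and 10 in the 2-allele libraries, 4 and 5 in 1-allele, 19 and 13 in the NICD libraries and 15 and 12 in those of wild type, and 3, 20 and 10 in the H3K4me3 libraries of Arid1a-floxed, NICD and wild type glands. The order of group means was that of the pit genes, and also that of all genes, but some of its steps were small. For the pit genes, NICD (7.5 ± 2.1) and wild type (7.0 ± 1.4) overlapped and changed order at equal list length (SD, n = 2 each). Mean shares over all genes were 51.6% in NICD, 43.7% in wild type, 43.5% in 2-allele and 22.1% in 1-allele. Wild type and 2-allele were thus nearly equal over all genes (SD 1.6 and 1.2). None of the 22 separated NICD from wild type. Called in both NICD libraries but no 1-allele library were 7, among them Agr2 (a disulfide isomerase needed for mucin folding), C1galt1c1 (the chaperone of the core O-glycan galactosyltransferase), Creb3l1 (a transcription factor of secretory cells) and Ern2 (an endoplasmic reticulum stress sensor of mucous cells). Creb3l1, Muc1 (a transmembrane mucin) and Tspan8 (a tetraspanin) were called in both NICD libraries but no 2-allele library. Agr2, Ern2 and Galnt5 (a transferase that starts O-glycans) were called in both 2-allele libraries but no 1-allele library. Foxq1 (a forkhead factor required for Muc5ac in mouse pit cells), Fut2 (a fucosyltransferase) and Spdef (a factor of secretory differentiation) were called in all 8 H3K27ac libraries, as Sult1c2 was. Over all genes these patterns occurred, in the order given, in 19.1%, 3.71%, 12.2% and 14.4%.

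Marker lists of other cells that glands can hold were counted in the same way. The shares over all genes to set beside them are those given per library with the pit gene promoters. Of 8 parietal genes, 3 and 3 were called in 2-allele, 3 and 2 in 1-allele, 3 and 3 in the NICD libraries and 5 and 4 in those of wild type. Atp4b (a subunit of the proton pump) and Hrh2 (the histamine receptor) were called in both wild type libraries but no NICD library, a pattern of 0.128% of all genes. Atp4b was also called in 1-allele replicate 1 (15.8 percentile). Kcnq1 went the other way, with calls in both NICD libraries (75.9 and 63.0), both 2-allele libraries (17.4 and 27.6) and wild type replicate 1 (21.3), and in no 1-allele library. Car2 and Ezr were called in all 8 H3K27ac libraries, as 14.4% of all genes were. Atp4a and Kcne2 had no promoter peak in any of the 11 libraries. Of 5 chief cell genes, 1 was called in each NICD library (Bhlha15, a secretory cell factor), 2 in wild type replicate 1 and 0 elsewhere in H3K27ac, and Pga5 was in no library. Of 3 mucous neck genes, 2 were called in NICD replicate 1 alone. No endocrine gene of 6 and no squamous forestomach gene of 5 was called in H3K27ac. Intestinal genes called, of 6, were 1 and 1 in 2-allele, 0 and 0 in 1-allele, 3 and 1 in the NICD libraries and 1 and 0 in those of wild type, with Muc2 in no library. Blood genes called, of 5, were 1 and 0 in 2-allele, 0 and 0 in 1-allele, 1 and 1 in the NICD libraries and 0 and 0 in those of wild type, each call being Ptprc. Stromal genes called, of 5, were 0 and 0 in 2-allele, 0 and 0 in 1-allele, 2 and 1 in the NICD libraries and 1 and 0 in those of wild type, with Pdgfra and Pecam1 in no library. The part of changes in cell makeup in the values of the pit genes was not tested.

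**Figure D5:**
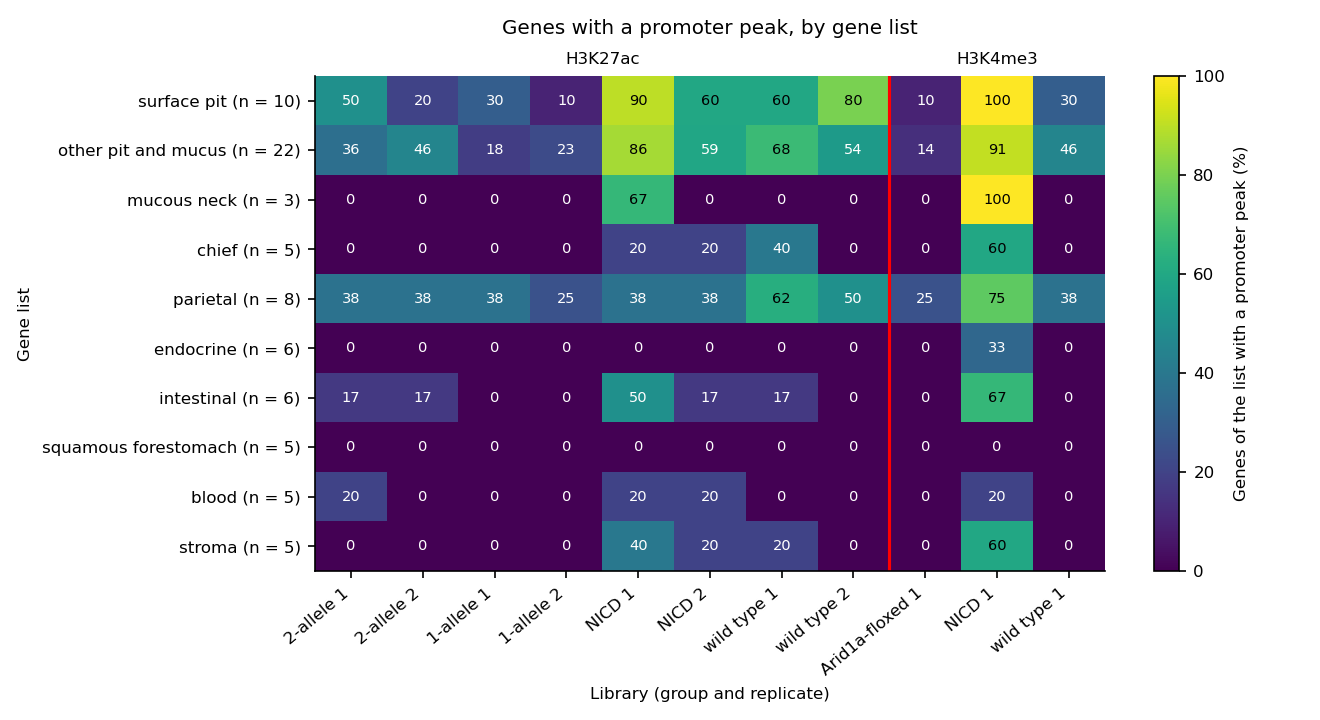
Percent of each gene list (rows, with its size) that had a promoter peak in each library (columns: H3K27ac left of the red line, H3K4me3 right of it). The pit list and the other pit and mucus genes are both highest in H3K27ac in NICD replicate 1, at 90.0% and 86.4%, and the squamous forestomach row is 0 throughout.

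The limits of the windows fell between sites. Just inside 50 kb were a site 48658 bp from the Gkn1 body and one 47644 bp from that of Psca. Just outside lay sites 50621 bp from Gkn1, 50693 bp from Cldn18 (called in 7 libraries), 51645 bp from Tff1 and 53998 bp from Capn9 (called in 8 libraries).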

How the data were processed

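Per the submitters' processing notes, Bowtie2 was the aligner, MACS2 the peak caller and GRCm38 (mm10) the build. MACS 2.0.10.20131216 made 9 of the lists, per the file headers, from each library without a control at a q-value threshold of 0.05, with a local background of up to 10 kb and an effective genome size of 2.7 Gb (the setting for human). For every peak the deposited columns are pileup signal at the summit, −log10 of the p-value and of the q-value, and the fold enrichment ratio over the local background. These deposited scores are the authors', and ranked peaks inside a list only. Both 2-allele lists hold positions only. Their file order was used as rank, since 82.4% and 79.9% of their first 1000 regions and 0.4% and 1.2% of their last 1000 were called in all 6 scored H3K27ac lists. Per the labels' protocol the antibody was to H3K27ac throughout; that for H3K4me3 is not stated.

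Members and lists were chosen with earlier results of these data known. Gene starts were strand-aware for 17492 genes (RefSeq), the single gene end within 1 kb of an H3K4me3 peak for 2581, and both ends for 1814. Sites are peaks of all lists merged at an overlap of at least 1 bp, and distal sites have no protein-coding start within 1 kb. All members were named, neighbours only where their promoter in a window had a peak, and of the lists at most 4 genes per pattern in alphabetical order. Genes at 0 in a list, and those called in all 8 libraries or only in a few, were named after their values were seen. Values were computed in Python 3.11.15 with numpy 2.4.6 and pandas 2.3.3, and the 4-group test was tested on simulated data. Alternatives changed the promoter width, window, overlap, gene end, list length, score and replicates.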

Additional observations from a re-analysis of the deposited data

How the results depend on the processing

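Every difference in counts between groups changed direction in at least 1 of the settings with lists of equal length. At the length of the shortest list, no H3K27ac library had more than 3 genes or 2 distal sites called, so the differences there rest on few calls. Genes with a promoter peak differed by 0.5 in NICD minus wild type, by -1.0 at the length of the shortest list and by -2.5 at equal length within the pair. The difference was -5.5 in 1-allele minus NICD, and 1.0 under both. It was -4.0 in 2-allele minus NICD, with -0.5 and 0.5, and 1.5 in 2-allele minus 1-allele, with -1.5 under both. Distal sites differed by 10.0 in NICD minus wild type, by 0.0 at the length of the shortest list and by -5.5 at equal length within the pair, by -19.5 in 1-allele minus NICD and 1.5 under both, by -19.0 in 2-allele minus NICD with 0.5 and -1.5, and by 0.5 in 2-allele minus 1-allele with -1.0 under both and 3.5 with a window of 100 kb. Cutting the lists leaves fewer peaks to call. Otherwise the cause was not tested.

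Leaving out 1 library at a time gave promoter differences of -1.0 to 2.0 in NICD minus wild type (reversed without NICD replicate 1, at -1.0, and without wild type replicate 1, at -0.5), -7.0 to -4.0 in 1-allele minus NICD, -5.5 to -2.5 in 2-allele minus NICD and 0.0 to 3.0 in 2-allele minus 1-allele. The same ranges for distal sites were -0.5 to 20.5 (reversed without NICD replicate 1), -30.0 to -9.0, -29.5 to -8.5 and 0.0 to 1.0. Over the scored H3K27ac lists the median percentile of the members' promoter peaks was 45.4 by −log10 p, 18.2 by fold enrichment and 74.5 by pileup. A promoter width of 2.5 kb, either gene end as start, a window of 25 kb and a stricter overlap reversed no difference, but with the window of 25 kb that of distal sites in 2-allele minus 1-allele was 0.0.

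In the 4-group test, 0 genes passed the adjusted threshold under every alternative run, including the replicate block (0 genes, smallest p 0.0417, 1456 genes with an unadjusted p under 0.05). With so few ways to group the libraries, passing needs many genes at the smallest p. These results therefore cannot tell whether single genes differed. The replicate numbers did not pair the samples, with correlations of deviations of -0.02 to 0.1. Depth of the 2-allele libraries is unknown, and which missing peaks are due to depth was not tested.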
